A study of Homo sapiens with 4 samples.

Results

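The aldehyde dehydrogenases examined were 10 of the 19 human ALDH genes, taken by gene symbol from a table of 57815 genes: ALDH1A1, ALDH1A2, ALDH1A3, ALDH1B1, ALDH1L1, ALDH1L2, ALDH2, ALDH3A2, ALDH3B1 and ALDH7A1. Each symbol matched 1 row, and the status was OK for all 10 in either line. MDA-MB-231 cells come from a triple-negative breast cancer, and LM2-4175 (hereafter LM2, as in the table) is a line derived from them that metastasizes to the lung. Neither line was treated, and both were grown in DMEM with serum. RNA-Seq was performed on 2 libraries per cell line, but the deposited values combine them, so each gene has 1 FPKM (fragments scaled by transcript length and library size) per cell line with a lower and an upper bound. No difference between the cell lines therefore has a replicate check, and no p-value was computed. The sequencing depth cannot be read from these values. The bounds are the only range listed for each value, and what error they cover is not stated. In such bulk RNA, fewer cells of a type and less RNA per cell cannot be told apart.

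Aldehyde dehydrogenases oxidize reactive aldehydes to carboxylic acids with NAD or NADP. Members of the ALDH1A group turn retinaldehyde into retinoic acid, the ligand of the retinoic acid receptors, and ALDH2 clears acetaldehyde in mitochondria. ALDH activity is widely used to sort stem-like cells from breast tumours, and ALDH1A1 and ALDH1A3 are the enzymes usually discussed as its source.

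In LM2, ALDH1A3 was higher and ALDH2 and ALDH3B1 were lower than in MDA-MB-231, with listed bounds that did not overlap. The other 7 genes were either close to 0 or had overlapping bounds. ALDH1A1, the namesake of the marker, was near 0 in both cell lines. A gene was called where its mean was at least 0.5 FPKM, the ratio of FPKM + 1 was at least 1.5 in either direction and the bounds did not overlap. Of the 10 genes, 7 passed the filter on the mean, and 1 was called higher and 2 lower. Over all 13911 genes that passed the filter, 9.27% were called, 4.67% higher and 4.61% lower. By the fold alone, 22.1% of all genes passed, 10.3% higher and 11.8% lower, and of the 7 genes 1 was higher and 3 lower. The median log2 change of the 7 genes was -0.36, against -0.04 over all genes that passed the filter. Since the genes were chosen with earlier results of these data known, the count describes them and was not tested.

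**Figure D1:**
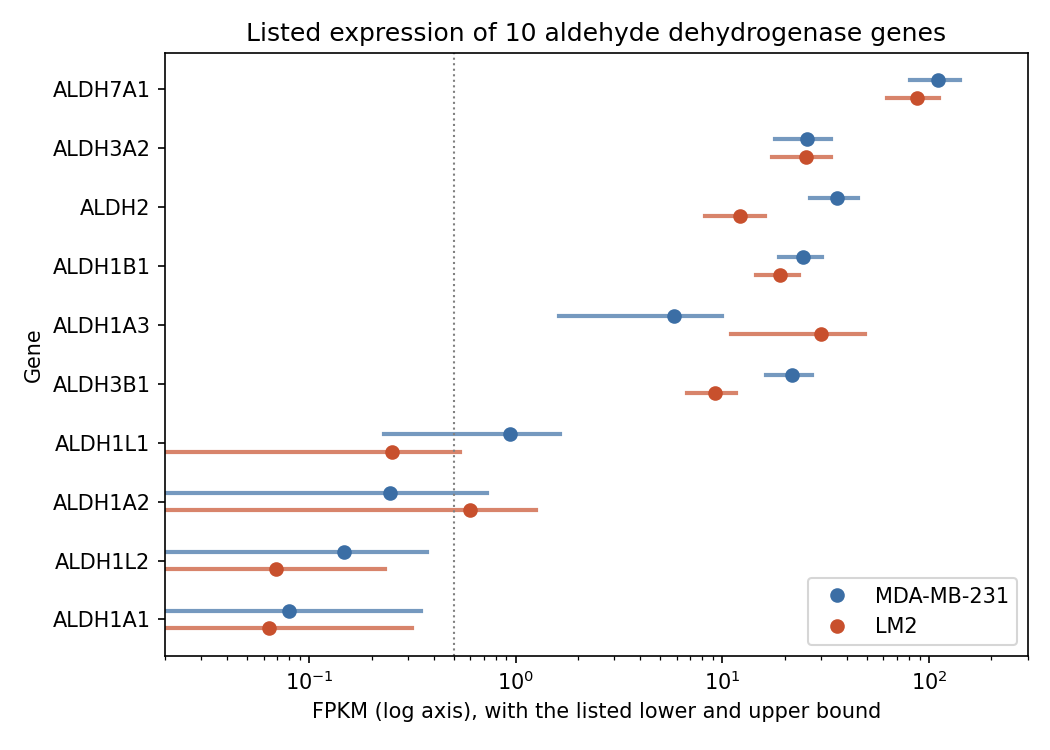
Listed FPKM of the 10 genes on a log axis, ordered by mean level, with MDA-MB-231 in blue and LM2 in orange. Points are the listed values, lines reach from the lower to the upper bound (bounds of 0 run to the left edge), and the dotted line marks 0.5 FPKM. The bounds of the cell lines are apart for ALDH1A3, ALDH2 and ALDH3B1.

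To show how the start regions differ between the ALDH1A gene that was called, the ALDH1A gene at the bottom of the ranking and the gene at its top, the promoter windows of ALDH1A3, ALDH1A1 and ALDH7A1 are given. They are RefSeq sequences from 250 bases before to 50 bases after a listed start (table of GRCh38.p14), printed 5′ to 3′ along the gene, and each matched GRCh37 at 1 place without mismatches. These places are chr15:101419786-101420085 on the plus strand for ALDH1A3, chr9:75567920-75568219 on the minus strand for ALDH1A1 and chr5:125930862-125931161 on the minus strand for ALDH7A1. Capitals mark matches on either strand to the TATA box (TATAAA), the CCAAT box (CCAAT), the GC box (GGGCGG), the AP-1 motif (TGANTCA) or the E-box (CACGTG), where matches to GGGCGG may overlap each other.
ALDH1A3: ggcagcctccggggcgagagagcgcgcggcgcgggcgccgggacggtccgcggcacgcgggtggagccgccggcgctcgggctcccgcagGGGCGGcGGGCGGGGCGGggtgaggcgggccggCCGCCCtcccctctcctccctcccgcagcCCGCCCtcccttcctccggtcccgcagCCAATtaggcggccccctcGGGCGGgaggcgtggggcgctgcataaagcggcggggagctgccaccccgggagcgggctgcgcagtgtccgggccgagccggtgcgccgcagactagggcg
ALDH1A1: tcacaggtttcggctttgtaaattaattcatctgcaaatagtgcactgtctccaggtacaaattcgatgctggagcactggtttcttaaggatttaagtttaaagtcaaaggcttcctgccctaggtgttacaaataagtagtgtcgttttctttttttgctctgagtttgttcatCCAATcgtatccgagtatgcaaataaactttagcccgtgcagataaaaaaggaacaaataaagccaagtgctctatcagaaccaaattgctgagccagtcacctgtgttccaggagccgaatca
ALDH7A1: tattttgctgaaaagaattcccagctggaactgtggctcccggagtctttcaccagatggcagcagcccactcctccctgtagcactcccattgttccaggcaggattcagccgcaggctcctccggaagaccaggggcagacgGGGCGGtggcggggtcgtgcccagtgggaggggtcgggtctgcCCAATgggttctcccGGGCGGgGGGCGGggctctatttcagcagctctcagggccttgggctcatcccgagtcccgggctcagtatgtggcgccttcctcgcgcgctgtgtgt
The ALDH1A3 window had a GC content of 81.7% with 46 CpG dinucleotides, 6 matches to GGGCGG and 1 to CCAAT. In ALDH1A1 the GC content was 40.3% with 7 CpG dinucleotides and 1 match to CCAAT. The ALDH7A1 window lay between them at 64.3% GC with 17 CpG dinucleotides, 3 matches to GGGCGG and 1 to CCAAT. Among 35116 promoter windows in the table, the median GC content was 58.7%, and 98.6% had a lower GC content than ALDH1A3 while 11.8% had a lower one than ALDH1A1. The GC box occurred in 45.0% of all windows, the CCAAT box in 34.6%, the TATA box in 11.5%, the AP-1 motif in 7.71% and the E-box in 7.26%. The last 3 were not found in the windows printed. These matches describe letters in a window, and binding was not measured here.

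The ALDH1A group was represented almost wholly by ALDH1A3. ALDH1A3 (ENSG00000184254, GRCh37 chromosome 15, bases 101417919 to 101456831 on the plus strand) was listed at 5.81 FPKM for MDA-MB-231 (bounds 1.62 to 9.99) against 30.1 FPKM for LM2 (bounds 11.0 to 49.1). Its bounds were wide, reaching 72.0% above the value in MDA-MB-231 and 63.5% above it in LM2, and the facing bounds were only 0.982 FPKM apart. The ratio of the levels was 5.18, and the log2 change of FPKM + 1 was 2.19. Of all genes tested, 35.0% had a lower FPKM than ALDH1A3 in MDA-MB-231 and 74.55% had a lower one in LM2.

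ALDH1A2, which makes retinoic acid in the embryo, had 0.246 FPKM in MDA-MB-231 (0 to 0.726) against 0.600 FPKM in LM2 (0 to 1.25). ALDH1A1 had 0.0793 FPKM (0 to 0.347) and 0.0636 FPKM (0 to 0.314). All of these bounds include 0, and both genes stayed under the filter on the mean, so no change was called for them. AQP9, whose exons overlap 4.36% of those of ALDH1A2, was at 0.0928 FPKM or lower. Summed over the 3 genes, the ALDH1A level was 6.13 FPKM in MDA-MB-231 and 30.7 FPKM in LM2, of which ALDH1A3 made up 94.7% and 97.8%.

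The exons of ALDH1A3 lie partly across from an antisense gene. In GENCODE 44 on GRCh37, ALDH1A3-AS1 covers 32.1% of the exon bases of ALDH1A3 on the opposite strand. The library kit named in the methods does not mark strand and the alignment used default settings, so reads from overlapping bases of such genes cannot be told apart. The FPKM were quantified on an earlier GENCODE release, in which the overlap may differ. The deposited table lists this antisense gene as RP11-66B24.4, at 0.311 FPKM in MDA-MB-231 and 0.475 FPKM in LM2. LRRK1, a kinase gene that shares the locus entry of ALDH1A3 in the table, had 5.56 FPKM (3.10 to 8.02) and 9.86 FPKM (4.62 to 15.1), with overlapping bounds.

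Genes around ALDH1A3 were higher in LM2 as well. Within 3 Mb, each of the 16 further protein-coding genes tested had a higher FPKM in LM2, with log2 changes from 0.05 to 1.45 (median 1.13), and 6 passed the call rule as higher. Over all 12082 protein-coding genes tested, 5402 were higher and 6680 lower in LM2, with a median of -0.05, and 563 were called higher. The change of ALDH1A3 was above that of every gene in this window and exceeded the window's median by 1.06 on the log2 scale. The part of the region in the result was not tested.

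**Figure D2:**
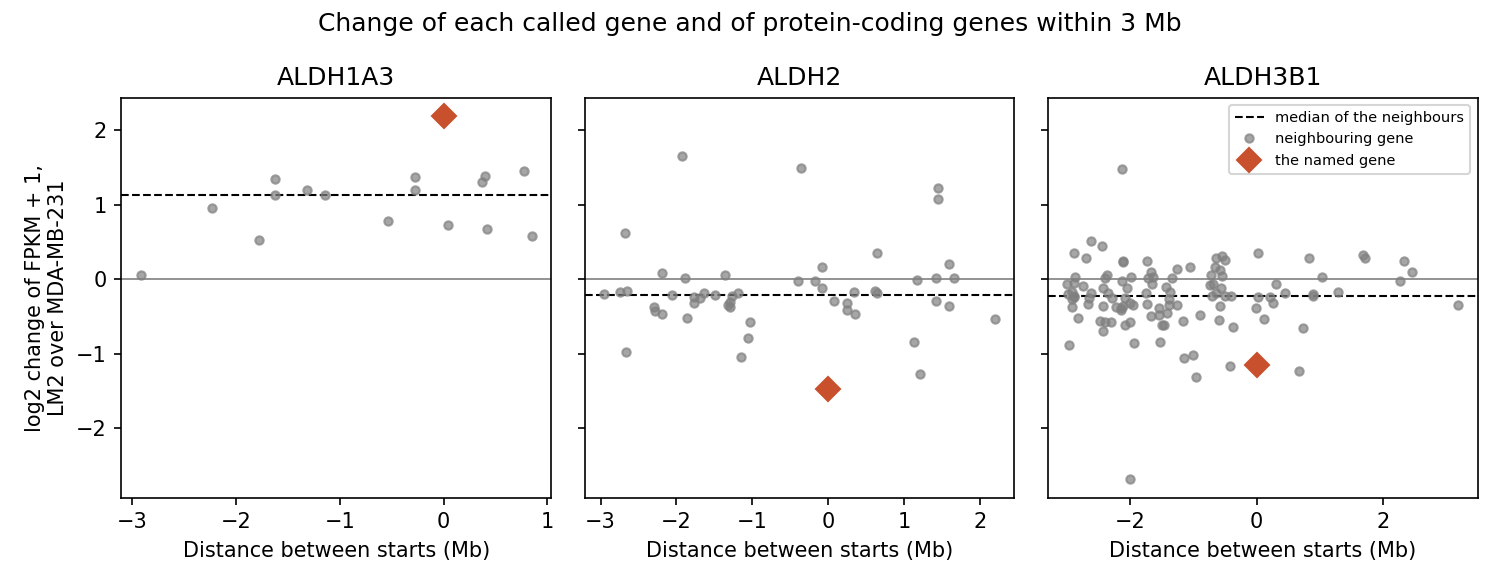
Log2 change of FPKM + 1 (LM2 over MDA-MB-231) for ALDH1A3, ALDH2 and ALDH3B1 (orange diamonds) and for the protein-coding genes tested within 3 Mb of each (grey points), against the distance between gene starts in Mb. The window of 3 Mb was measured from the ends of the genes, so some starts lie farther away. Dashed lines are the medians of the neighbours, 1.13, -0.21 and -0.22. The neighbours of ALDH1A3 all lie above 0, and ALDH1A3 and ALDH2 lie beyond all of their neighbours.

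Both of the genes that fell act on small or lipid-derived aldehydes. ALDH2 (ENSG00000111275, chromosome 12, 112204691 to 112255336, plus strand), the mitochondrial enzyme of acetaldehyde clearance, had 35.8 FPKM in MDA-MB-231 (26.5 to 45.2) against 12.2 FPKM in LM2 (8.25 to 16.1). MDA-MB-231 was 2.94 times higher, the log2 change of FPKM + 1 was -1.48, and the facing bounds were 10.4 FPKM apart. This was the clearest separation of bounds among the 10 genes. Within 3 Mb, 38 of 51 tested protein-coding genes were lower in LM2 (median log2 change -0.21), against 6680 of all 12082 (median -0.05). Of the 51, 3 were called higher and 1 lower, which is 7.84%, against 9.46% of all protein-coding genes tested. None of the 51 had a change below that of ALDH2. ACAD10, which shares its locus entry, had 5.00 FPKM (1.47 to 8.53) and 5.75 FPKM (2.27 to 9.23). A protein-coding gene on the same strand, ENSG00000257767, overlaps 6.99% of the exon bases of ALDH2 and was listed at 0.00273 FPKM in MDA-MB-231 and 0.0474 FPKM in LM2.

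ALDH3B1 (ENSG00000006534, chromosome 11, 67776048 to 67796749, plus strand) oxidizes medium- and long-chain aldehydes that arise from lipid peroxidation. It had 21.6 FPKM in MDA-MB-231 (16.2 to 27.1) against 9.20 FPKM in LM2 (6.72 to 11.7), which is 2.35 times higher in MDA-MB-231 with a log2 change of -1.15. The facing bounds were 4.53 FPKM apart. Of 112 protein-coding genes within 3 Mb, 80 were lower in LM2 (median log2 change -0.22), against 6680 of all 12082 (median -0.05). None of the 112 was called higher and 6 were called lower, which is 5.36%, against 9.46% of all protein-coding genes tested. In this window, 4 genes had a lower change than ALDH3B1. Its exons are free of overlap with other annotated exons. Its close relative ALDH3B2 was near 0, with 0.00919 FPKM in MDA-MB-231 and a listed 0 in LM2.

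The remaining enzymes at a high level were not called. ALDH7A1 (antiquitin), which acts in lysine breakdown, had the highest level of the 10 genes in both lines, with 110.6 FPKM in MDA-MB-231 (80.6 to 140.6) against 87.2 FPKM in LM2 (62.8 to 111.7). The 4 pseudogenes of ALDH7A1 in the table were listed at 0 in both lines. ALDH1B1, a mitochondrial enzyme close to ALDH2 in sequence, had 24.5 FPKM (18.8 to 30.2) and 18.9 FPKM (14.5 to 23.4). ALDH3A2, the fatty aldehyde dehydrogenase that is lost in Sjögren-Larsson syndrome, had 25.7 FPKM (17.9 to 33.6) and 25.5 FPKM (17.3 to 33.7).

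The bounds of these 3 genes overlapped between the lines, with log2 changes of -0.34 for ALDH7A1, -0.36 for ALDH1B1 and -0.01 for ALDH3A2. Taking the bounds at their extremes, the ratio of LM2 to MDA-MB-231 could lie between 0.447 and 1.39 for ALDH7A1, between 0.479 and 1.24 for ALDH1B1 and between 0.516 and 1.88 for ALDH3A2. A difference of 1.5-fold is thus within the bounds of each. The sign for ALDH3A2 has no meaning, since it turned to 0.07 after scaling to TPM.

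The folate enzymes ALDH1L1 (cytosol) and ALDH1L2 (mitochondria), which remove one-carbon units from 10-formyltetrahydrofolate, were low in both lines. ALDH1L1 had 0.933 FPKM in MDA-MB-231 (0.229 to 1.64) against 0.2503 FPKM in LM2 (0 to 0.538). Its log2 change of -0.63 was past 1.5-fold but its bounds overlap, and without a pseudocount the log2 change was -1.90. For ALDH1L2, the values were 0.148 FPKM (0 to 0.370) and 0.0688 FPKM (0 to 0.231), so that nothing can be said of a difference. Exons of WASHC4 (27.4 and 23.4 FPKM) overlap 1.38% of the exon bases of ALDH1L2, and those of NOPCHAP1 (6.39 and 5.40 FPKM) overlap 1.53%.

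The order of the levels differed between the lines. FPKM is per length, so levels can be compared between genes. In MDA-MB-231, ALDH7A1 was followed by ALDH2, ALDH3A2, ALDH1B1 and ALDH3B1, then by ALDH1A3, ALDH1L1, ALDH1A2, ALDH1L2 and ALDH1A1. In this line the bounds of neighbours in the order were apart only between ALDH7A1 and ALDH2 and between ALDH3B1 and ALDH1A3. In LM2, the order was ALDH7A1, ALDH1A3, ALDH3A2, ALDH1B1, ALDH2, ALDH3B1, ALDH1A2, ALDH1L1, ALDH1L2 and ALDH1A1, with gaps only after ALDH7A1 and after ALDH3B1. Of 45 pairs of genes, 32 had bounds apart in each line. ALDH2 was 6.17 times the level of ALDH1A3 in MDA-MB-231, with bounds apart. In LM2, ALDH1A3 was 2.47 times the level of ALDH2, but there the bounds of ALDH1A3 overlap those of ALDH2 and of ALDH3B1.

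Over all 19 ALDH genes, the summed level was 362.5 FPKM in MDA-MB-231 and 304.3 FPKM in LM2, a ratio of 0.839, while the ratio of the sums over all genes in the table was 0.945. ALDH1A3 accounted for 1.60% of this total in MDA-MB-231 and for 9.88% in LM2. For ALDH2 the share went from 9.88% to 3.997%, and that of ALDH3B1 was 5.97% and 3.02%. ALDH7A1 and ALDH9A1 were the highest pair in both lines and together held 47.7% and 45.7% of the summed FPKM.

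**Figure D3:**
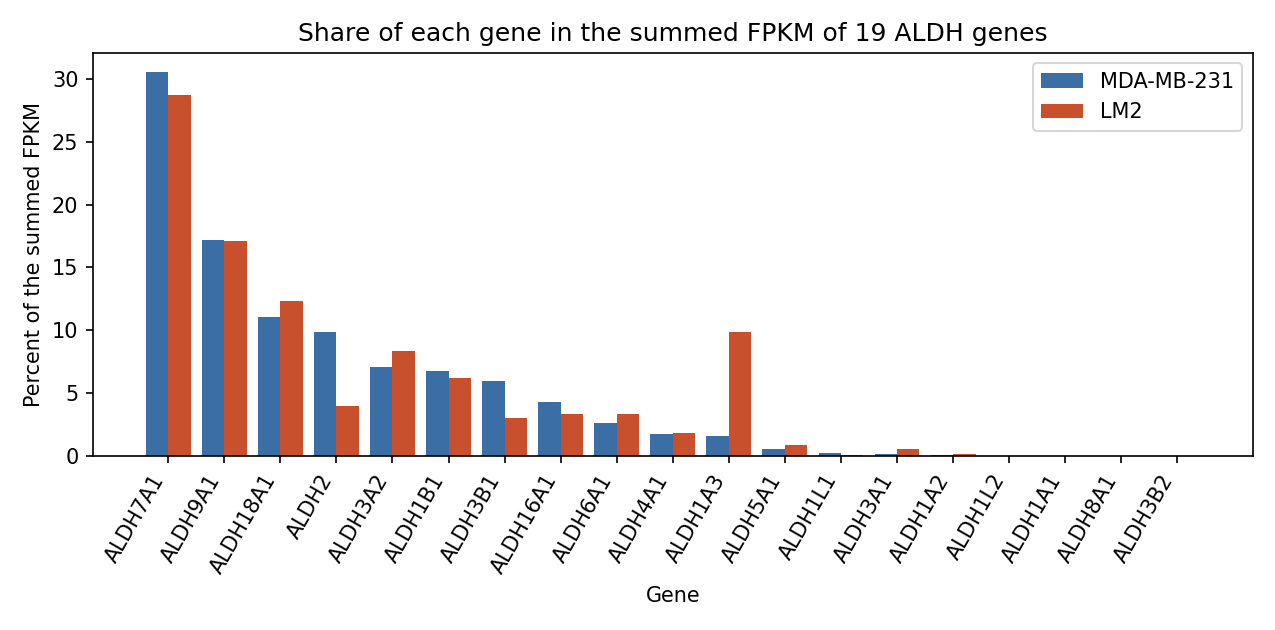
Percent of the summed FPKM of 19 ALDH genes held by each gene, in MDA-MB-231 (blue) and LM2 (orange), ordered by the share in MDA-MB-231. The share of ALDH1A3 is 1.60% and 9.88%, and that of ALDH2 is 9.88% and 3.997%.

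Of the 9 ALDH genes outside the chosen 10, 7 passed the filter and none was called. Their median log2 change was -0.09, against -0.04 over all genes, of which 9.27% were called. ALDH9A1, which acts in carnitine synthesis, had 62.4 FPKM in MDA-MB-231 (47.9 to 76.9) against 51.9 FPKM in LM2 (39.8 to 64.0). ALDH18A1, which begins proline synthesis, had 40.0 FPKM (29.5 to 50.5) and 37.6 FPKM (27.4 to 47.8). ALDH3A1, a major protein of the cornea, was the 1 gene of these past 1.5-fold, with 0.527 FPKM (0 to 1.18) and 1.70 FPKM (0.761 to 2.63) and overlapping bounds. ALDH16A1 had 15.5 and 10.2 FPKM with bounds that start at 0 in both lines, and its locus entry also holds RPL13A. Exons of ENSG00000269469 (same strand) and PIH1D1 (opposite strand) overlap 7.34% and 3.31% of its exon bases. The part of these genes in the bounds was not tested. ALDH4A1, ALDH5A1 and ALDH6A1, enzymes of proline, GABA and valine breakdown, had log2 changes of -0.16, 0.22 and 0.06. Exons of other protein-coding genes overlap 41.8% of the exon bases of ALDH4A1 (RP13-279N23.2), 10% of ALDH6A1 (BBOF1) and 3.16% of ALDH5A1 (GPLD1). For ALDH4A1 the other gene lies on the same strand. ALDH8A1 was at 0.154 FPKM or lower.

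Genes that act before and after these enzymes were examined from lists written with earlier results of these data known. In the retinoid list of transport, conversion, breakdown and receptor genes, 14 of 24 passed the filter, 10 were higher and 4 lower in LM2, and 1 was called higher. Their median log2 change was 0.21, against -0.04 over all genes. Of the 14, 7.14% were called, against 9.27% of all genes that passed the filter. Among all 13911 such genes, 6326 were higher and 7585 lower in LM2. The gene called was LRAT, which esterifies retinol for storage, with 0.259 FPKM in MDA-MB-231 (0.0336 to 0.485) against 1.16 FPKM in LM2 (0.590 to 1.72). LRAT was not called with a minimum mean of 1 FPKM or a fold of 2. CYP26B1, which degrades retinoic acid, had 3.91 FPKM (1.84 to 5.97) and 7.58 FPKM (3.75 to 11.4) with overlapping bounds. The receptor genes RARA, RARG and RXRA had log2 changes of 0.19, 0.41 and -0.41, and none was called.

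In the folate list, 22 of 25 genes passed the filter, 10 were higher and 12 lower. Their median log2 change was -0.10, against -0.04 over all genes. Of the 22, 4.55% were called, against 9.27% of all genes. The 1 gene called was lower in LM2. This was FOLR1, a folate receptor, with 4.37 FPKM in MDA-MB-231 (2.81 to 5.92) against 1.20 FPKM in LM2 (0.617 to 1.79). TYMS, which uses folate to make thymidylate, had 136.6 FPKM (93.3 to 179.8) and 73.1 FPKM (49.4 to 96.8) with bounds that overlap narrowly. SHMT2, the mitochondrial enzyme that loads folate with one-carbon units from serine, had 122.6 FPKM (91.2 to 154.1) and 182.7 FPKM (135.5 to 229.9), far above ALDH1L1 and ALDH1L2.

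Among 22 other enzymes that reduce or oxidize aldehydes and related carbonyls, 14 passed the filter, of which 1 was called in each direction (median log2 change -0.35). The share called was 14.3%, against 9.27% of all genes, whose median was -0.04. AOX1, an aldehyde oxidase that does not use NAD, had 29.8 FPKM in MDA-MB-231 (18.5 to 41.1) against 66.1 FPKM in LM2 (42.3 to 89.9). AKR1C3, an aldo-keto reductase that acts on steroids and prostaglandins, had 19.5 FPKM (14.4 to 24.7) and 7.83 FPKM (5.49 to 10.2), and its reads may be shared with the similar genes AKR1C1 and AKR1C2. ADH5, which clears formaldehyde, was at 95.7 FPKM in MDA-MB-231 and 95.8 FPKM in LM2.

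Of the 11 genes listed for lysine breakdown, the pathway of ALDH7A1, 9 passed the filter and none was called (median log2 change 0.37). The changes were mixed, with 5 higher and 4 lower in LM2. Over all genes, 9.27% were called and the median was -0.04. ETFB, a subunit of the electron carrier of this pathway, had 42.5 FPKM in MDA-MB-231 (31.7 to 53.3) against 66.7 FPKM in LM2 (50.5 to 82.85) with narrowly overlapping bounds, and it was called higher after scaling to TPM, after quantile normalization and by standard errors. Of the 12 genes for fatty aldehydes and sphingolipids, the setting of ALDH3A2, 11 passed the filter and 1 was called higher (median 0.11). This was 9.09% of the 11. SPHK1, which makes sphingosine 1-phosphate, had 7.97 FPKM in MDA-MB-231 (3.22 to 12.7) against 20.4 FPKM in LM2 (12.8 to 27.9), while SGPL1, which cleaves that lipid into a fatty aldehyde, had 13.6 FPKM (9.08 to 18.1) and 12.95 FPKM (9.44 to 16.5).

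**Figure D4:**
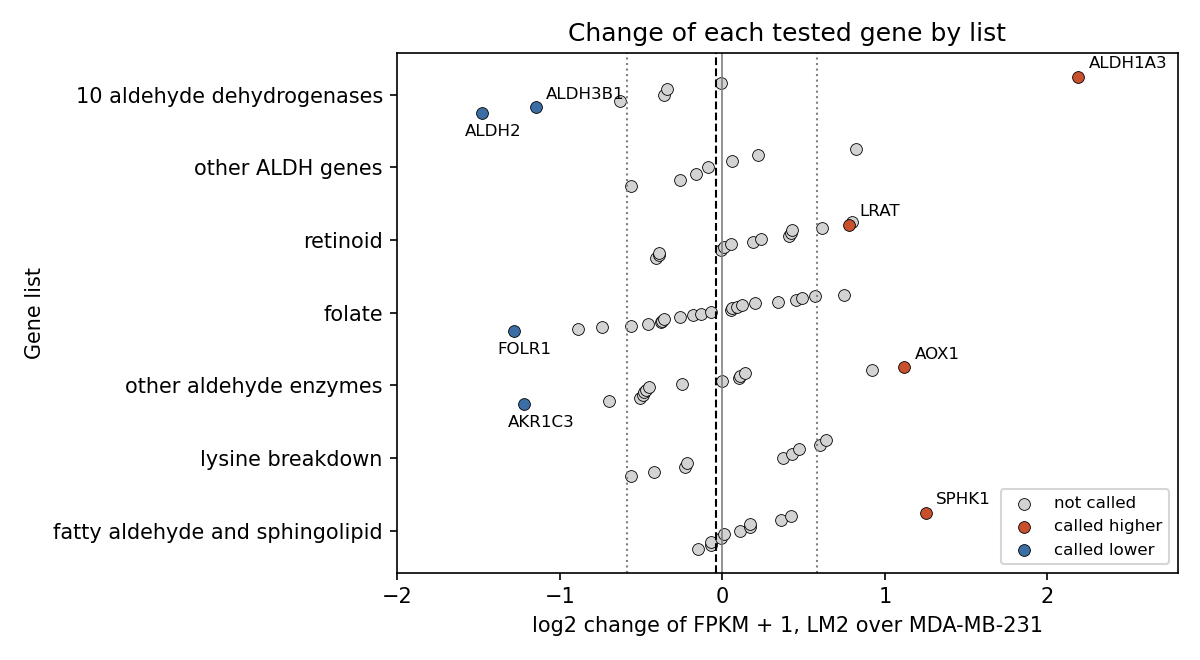
Log2 change of FPKM + 1 (LM2 over MDA-MB-231) for each gene that passed the filter, by list. Orange and blue points were called higher and lower and are named, grey points were not called, dotted lines mark 1.5-fold in either direction and the dashed line marks the median of all genes, -0.04. ALDH1A3 has the largest change in these lists, at 2.19.

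The labels of the lines were compared with marker genes. ESR1 and PGR, the hormone receptor genes that define other breast cancers, were at 0.0331 FPKM or lower in both lines, and VIM was at 1355 and 1768 FPKM. From the list of genes taken as low in such lines, KRT8 and KRT18 went against it at 180.2 to 625.7 FPKM. Both were called lower in LM2, though KRT18 was not after quantile normalization. EPCAM, on the same list, had 12.3 and 4.93 FPKM and was also called lower, and CAV1, on the list of 6 genes taken as present, was called lower from 587.3 to 151.1 FPKM. Among white blood cell genes, CD3E was listed at 0, PTPRC was at 0.0767 FPKM or lower, LYZ at 0.448 or lower and CD14 between 1.17 and 1.75 FPKM. CD68, which many other cells also transcribe, had 107 FPKM in MDA-MB-231 (0 to 237.6) and 178.9 FPKM in LM2 (10.57 to 347.2). These bounds are wide and overlap, so its level is poorly determined.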

How the data were processed

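Per the labels and the study's methods, the authors aligned paired reads of total RNA to hg19 with TopHat2. They quantified genes with Cufflinks and Cuffdiff on an earlier GENCODE release than the one used here for exon overlaps. The overlaps given for any gene may therefore differ from those behind the FPKM. They deposited FPKM, bounds below and above it and a status flag, as 1 value per gene and cell line from 2 libraries each. The library kit (TruSeq) was of a kind that does not mark strand, and alignment settings were the defaults. The normalization of libraries and what the bounds cover are not given in the sources used here. Limma on the libraries had been planned and could not be run on combined values.

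From the deposited FPKM, log2 ratios of FPKM + 1 were computed with Python 3.11.15, NumPy 2.4.6 and pandas 2.3.3 (figures: Matplotlib 3.10.9). Tested were genes flagged OK with a mean of at least 0.5 FPKM, and these were called at 1.5-fold with bounds apart. Another 12 settings were tried. Positions and exon overlaps came from GENCODE 44 on GRCh37, to which 55535 genes matched by Ensembl ID, 55531 of them overlapping their listed locus. Promoter sequences and their coordinates came from RefSeq and a match to GRCh37, and 8 of the 10 genes had an entry. The genes and lists were chosen with earlier results of these data known. Named were the 10 genes, the other ALDH genes, called genes of each list and genes that overlap or share a locus. Other genes, such as TYMS, CYP26B1, SHMT2, ETFB, ADH5, SGPL1 and the receptors, were named after their values were seen.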

Additional observations from a re-analysis of the deposited data

How the results depend on the processing

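ALDH1A3 was called higher and ALDH2 and ALDH3B1 were called lower under all 12 other settings. Most of these settings could not have changed those calls. The fold alone and the bounds alone are each a part of the rule that these genes had already passed. Their means lay above the highest minimum of 5 FPKM, and their ratios of FPKM + 1 were past 2. A smaller pseudocount only widens a ratio. The scaling settings were the main ones that could have changed a call, so the 12 are not separate checks. ALDH1L1 was added to the genes called lower by the fold alone. Over the pseudocount and scaling settings, the log2 change of ALDH1A3 lay between 2.19 and 2.37, that of ALDH2 lay between -1.56 and -1.41, and that of ALDH3B1 between -1.23 and -1.10. The log2 changes of ALDH1A2 and ALDH1L2, both low, reached 1.29 and -1.10 without a pseudocount. Over all genes, the count called higher was 321 with a mean of at least 5 FPKM and 1434 by the fold alone. The count called lower was 403 with a fold of 2, 1640 by the fold alone and 1090 where standard errors, taken from the upper bounds, replaced the overlap of bounds. After scaling to TPM, 735 genes were called higher and 547 lower, in place of 649 and 641. FOLR1 was not called with a mean of at least 5 FPKM, and ALDH3A1 was called higher by the fold alone and by the standard errors. ETFB was called higher by those 2 rules, after scaling to TPM and after quantile normalization, FABP5 by those 2 rules and after quantile normalization, and TYMS, FPGS and CBR3 were called lower by those 2 rules. By the fold alone, CYP26B1, AMT, CBR4 and ETFDH were also called higher. Among the marker genes, KRT18 was not called after quantile normalization, and CD68 was called higher by the fold alone. The settings for the lists and the neighbouring genes were chosen after seeing the data.

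No paired analysis was possible because the table merges the libraries of each line into 1 value, and leaving out a library was not possible for the same reason. At a mean of 0.5 to 1 FPKM, the upper bound lay a median of 97.4% above the listed level for MDA-MB-231 and 90.35% for LM2. For ALDH1A1, ALDH1A2 and ALDH1L2 the lower bound was 0 in both lines, and for ALDH1L1 it was 0 in LM2.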
